A study of Rattus norvegicus with 6 samples.

Results

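The regulators that set how much mitochondrial machinery a heart cell makes were examined in the hearts of Dahl S and S.LEW congenic rats. They were 10 genes: the coactivators Ppargc1a and Ppargc1b, the nuclear receptors Ppara, Esrra and Esrrg, the nuclear respiratory factor gene Nrf1, and Tfam, Tfb2m, Tefm and Polrmt, whose products transcribe mitochondrial DNA. The genes were chosen for these roles, with earlier results of these data known, and every probe set annotated to exactly 1 of them was taken. This gave 15 of the 31042 probe sets tested, and all 10 genes were measured. Ppargc1a and Nrf1 had 3 probe sets each, Esrrg had 2, and the other 7 genes had 1. A probe set is a group of short probes on the array that together measure a transcript.

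Dahl S rats are inbred and develop high blood pressure when fed salt. In S.LEW(10)x12x2x3x5 a stretch of chromosome 10 comes from the Lewis rat and the rest of the genome from Dahl S, and the extent of that stretch is not stated in the sources used here. The males of both strains shared a birth date and were weaned at 30 days. They ate a diet with 0.3% salt, a low level, and their hearts were taken at 53 days of age. RNA of the heart was hybridized to 3 arrays per strain, and each array carried RNA pooled from 2 animals, so that single animals cannot be seen. No chamber of the heart is named, and in such tissue RNA fewer cells of a type and less RNA per cell cannot be told apart.

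As background, PGC-1 coactivators have no DNA-binding domain of their own and act through partner factors. On PPAR alpha they raise genes of fatty acid use, and on the estrogen-related receptors (ERR) they raise genes of respiration and energy transfer. With nuclear respiratory factors they raise the genes of the mitochondrial transcription apparatus, so that nuclear and mitochondrial genes for the respiratory chain are made together. In mitochondria, Tfam bends and packages the promoter DNA, Tfb2m melts it, Polrmt is the RNA polymerase, and Tefm keeps the polymerase going during elongation. The adult heart depends on this network for its high oxidative capacity.

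Promoter sequences are shown first for 5 members, because they show which binding letters these genes carry in front of their start. Ppargc1a and Tefm were the members of smallest p-value, and Tfam, Tfb2m, Polrmt and Tefm together start and elongate mitochondrial transcripts. Each window runs from 250 bases before to 50 bases after the annotated start (RefSeq, GRCr8), written 5' to 3' in the direction of the gene. Capitals mark a match to a motif on either strand, and the window of Tfb2m holds none.
Ppargc1a, chr14:63634058-63634357, plus strand: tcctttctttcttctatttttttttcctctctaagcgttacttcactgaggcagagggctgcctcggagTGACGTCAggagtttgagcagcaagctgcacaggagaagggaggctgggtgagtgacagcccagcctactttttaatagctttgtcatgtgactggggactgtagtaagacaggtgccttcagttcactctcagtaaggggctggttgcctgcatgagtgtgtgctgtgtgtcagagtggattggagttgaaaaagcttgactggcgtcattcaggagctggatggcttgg
Tefm, chr10:65621993-65622292, minus strand: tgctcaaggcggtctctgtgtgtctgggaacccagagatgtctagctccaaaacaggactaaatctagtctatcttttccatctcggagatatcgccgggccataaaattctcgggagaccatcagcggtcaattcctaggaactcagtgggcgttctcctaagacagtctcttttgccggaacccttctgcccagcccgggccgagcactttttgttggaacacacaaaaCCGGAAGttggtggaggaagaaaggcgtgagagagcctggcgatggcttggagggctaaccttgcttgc
Tfam, chr20:17355123-17355422, plus strand: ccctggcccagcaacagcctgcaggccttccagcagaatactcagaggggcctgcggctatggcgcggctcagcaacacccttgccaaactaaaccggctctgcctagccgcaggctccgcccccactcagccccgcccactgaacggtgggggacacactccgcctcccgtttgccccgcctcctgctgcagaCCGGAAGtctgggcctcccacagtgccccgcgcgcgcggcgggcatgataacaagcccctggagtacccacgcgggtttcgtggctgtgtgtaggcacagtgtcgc
Tfb2m, chr13:93828545-93828844, minus strand: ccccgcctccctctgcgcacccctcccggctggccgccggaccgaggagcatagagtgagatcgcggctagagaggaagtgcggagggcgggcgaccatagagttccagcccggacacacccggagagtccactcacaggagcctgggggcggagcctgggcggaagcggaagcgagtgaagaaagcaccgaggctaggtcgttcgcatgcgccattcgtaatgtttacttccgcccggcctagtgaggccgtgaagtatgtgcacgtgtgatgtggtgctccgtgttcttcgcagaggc
Polrmt, chr7:10609946-10610245, plus strand: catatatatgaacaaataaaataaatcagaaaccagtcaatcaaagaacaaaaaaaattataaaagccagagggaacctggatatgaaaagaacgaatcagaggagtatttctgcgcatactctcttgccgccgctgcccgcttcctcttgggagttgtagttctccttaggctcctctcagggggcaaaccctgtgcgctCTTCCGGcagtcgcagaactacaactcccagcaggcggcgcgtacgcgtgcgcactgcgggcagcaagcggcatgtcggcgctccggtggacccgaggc

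The 10 genes lie on chromosomes 14 (Ppargc1a), 18 (Ppargc1b), 7 (Ppara and Polrmt), 1 (Esrra), 13 (Esrrg and Tfb2m), 4 (Nrf1), 20 (Tfam) and 10 (Tefm), so that Tefm alone lies on the chromosome of the Lewis stretch. Promoter windows of all 10 were found in the RefSeq table, 13 windows in all because Esrrg has 4. The motifs searched, on both strands, were GCGCA, any base and GCGC for NRF1, CCGGAAG for ETS factors such as GABP, AAGGTCA for the ERR site, a pair of AGGTCA runs with 1 base between them for a PPAR direct repeat and TGACGTCA for the cyclic AMP response element (CRE). The direct repeat contains the AGGTCA core of the ERR site, so that these motifs can overlap. Ppargc1a held the CRE letters, starting at position -181 from its start, and 1.83% of the 33469 windows in the table hold them. The ETS letters stood in Tefm at -19, in Tfam at -56 and in Polrmt at -49, the last on the opposite strand, and 8.75% of all windows hold them. Ppara held the NRF1 letters at -100, which 4.25% of all windows hold. The ERR site (4.61% of all windows) and the PPAR direct repeat (0.0538%) matched in 0 of the 13 windows. A match shows letters and not a bound factor, and a window without a match says nothing of the factor.

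In the hearts, none of the regulators passed the test between strains. The largest difference was that of Ppargc1b, which was higher in the congenic heart, while the brightest probe set of Ppargc1a was lower, as were 1 probe set of Esrrg and those of Tfb2m and Tefm. With limma and Benjamini-Hochberg adjustment over all probe sets, 0 of the 15 member probe sets were called at an adjusted p under 0.05, and their adjusted p ran from 0.736 to 0.988. The same fit called 11 of 31042 probe sets (0.0354%), 0.0161% lower and 0.0193% higher. At an unadjusted p under 0.05 there were 3 member probe sets lower and 1 higher in the congenic heart, where 3.10% and 3.57% of all probe sets were lower and higher. That is 26.7% of the member probe sets against 6.67% of all probe sets. The members were chosen with earlier results of these data known, so no test was made of this excess. All differences are congenic less Dahl S, in log2 units of the deposited values.

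**Figure D1:**
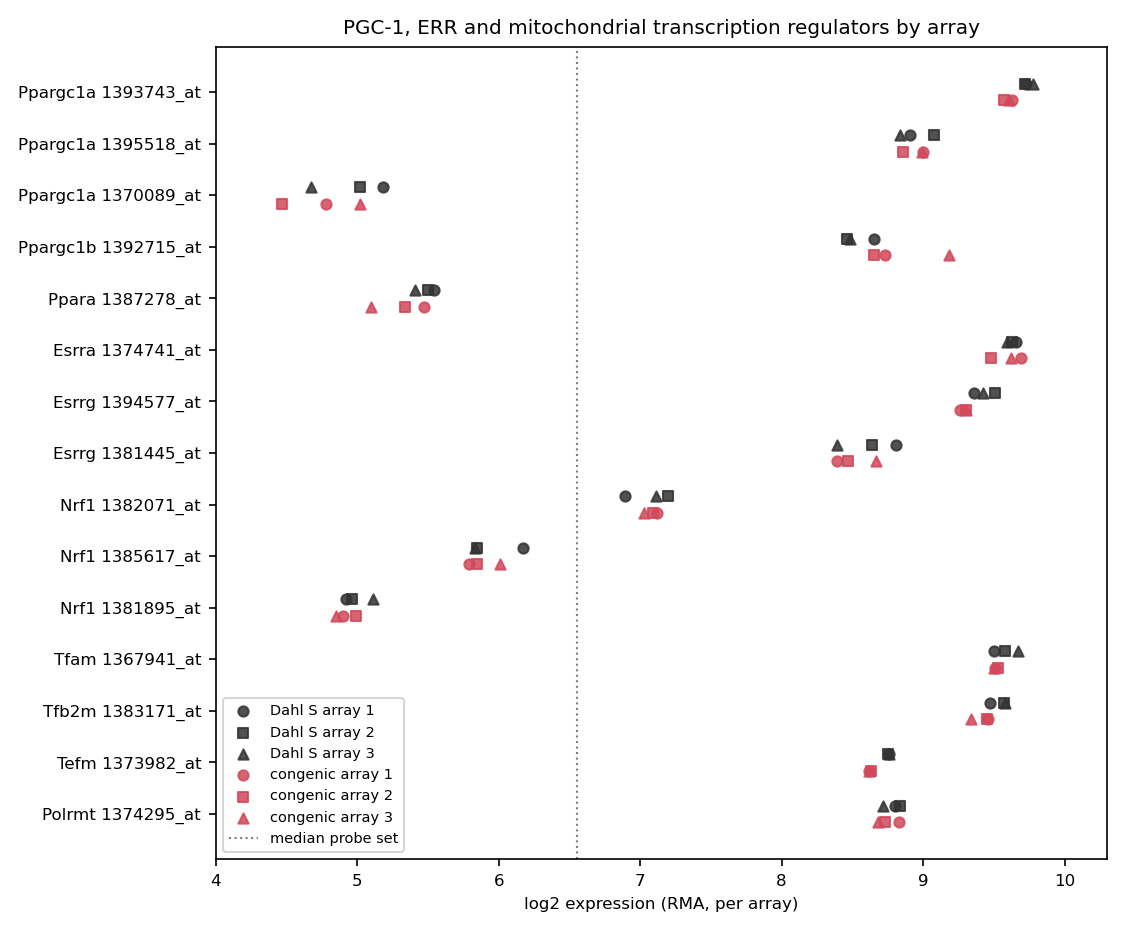
Log2 expression of the 15 probe sets of the 10 regulators on each array (dark, Dahl S; red, congenic; the symbol gives the array number), with the median probe set (6.55) as a dotted line. The strains do not overlap for Ppargc1a 1393743_at, Ppargc1b, Esrrg 1394577_at, Tfb2m and Tefm, and congenic array 3 stands apart for Ppargc1b at 9.18.

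Cardiac markers were high on every array. The 7 measured cardiomyocyte markers, among them Myh6, Tnnt2 and Myl2, had a mean log2 level of 14.45 to 14.50 on the 6 arrays and a median strain difference of -0.02. Other tissue in the pools varied more. Lymphocyte markers were far higher on Dahl S array 3, by a median of 1.36 above each gene's mean over the arrays, against -0.45 to -0.01 on the other arrays, and Cd3e, a T cell receptor subunit, read 8.41 there and 5.96 to 7.49 elsewhere. The brown fat gene Ucp1, which uncouples respiration from ATP synthesis, read 8.83, 10.09 and 11.44 on Dahl S arrays 1, 2 and 3 and 9.45, 10.92 and 9.66 on congenic arrays 1, 2 and 3. Hybridization controls were high on Dahl S array 3 and congenic array 2 (11.54 and 11.55 against 10.67 to 10.83), so that 1 array of each strain stood at the high level. The leading differences are given below without Dahl S array 3 and by control level.

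Among the coactivators, Ppargc1a, the inducible PGC-1 alpha that drives mitochondrial biogenesis, was measured by 3 probe sets with unlike results. The brightest, 1393743_at, read 9.73, 9.72 and 9.78 on Dahl S arrays 1, 2 and 3 and 9.63, 9.57 and 9.61 on congenic arrays 1, 2 and 3. Every congenic value lay below every Dahl S value, with means of 9.74 ± 0.03 and 9.60 ± 0.03 (SD, n = 3 each). Its difference was -0.14 (SE 0.05, 95% interval -0.26 to -0.01), a 1.10-fold lower level in the congenic heart, and it did not pass in limma (unadjusted p = 0.0343, adjusted p = 0.736). It was -0.10 on the 4 arrays with low hybridization controls (unadjusted p = 0.176 in limma) and -0.21 on the pair with high ones. The next probe set, 1395518_at, also bright, read 8.91, 9.08 and 8.84 in Dahl S and 9.00, 8.86 and 8.99 in the congenic heart. Its strains overlapped, and the difference was 0.01 (95% interval -0.17 to 0.19). The dimmest, 1370089_at, read 5.18, 5.02 and 4.67 against 4.78, 4.47 and 5.02, a difference of -0.20 with an interval of -0.59 to 0.18. Its arrays overlapped widely, and with 1 array left out it ran from -0.34 to -0.06.

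Ppargc1b, which encodes the related coactivator PGC-1 beta, went the opposite way. It read 8.65, 8.46 and 8.48 on the Dahl S arrays and 8.73, 8.65 and 9.18 on the congenic arrays. The lowest congenic value lay just at the highest Dahl S value, and the strains did not overlap only by a margin under the printed decimals. Congenic array 3 stood apart from the other 5 arrays. The means were 8.53 ± 0.11 and 8.85 ± 0.28 (SD, n = 3 each), a difference of 0.33 (SE 0.14, 95% interval 0.01 to 0.64), which did not pass in limma (unadjusted p = 0.0437, adjusted p = 0.744). Without congenic array 3 the difference was 0.16, with an unadjusted p of 0.0949 in limma. The difference was 0.40 on the 4 arrays with low hybridization controls and 0.18 on the 2 with high ones. Pprc1, the most distant member of this coactivator family, differed by -0.10 (adjusted p = 0.806 in limma).

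Among the receptors that PGC-1 works through, 0 passed the test. Esrrg, the ERR gamma receptor of oxidative muscle and heart, read 9.36, 9.51 and 9.42 in Dahl S and 9.26, 9.30 and 9.30 in the congenic heart on its brighter probe set, 1394577_at. The congenic arrays all lay below the Dahl S arrays and were close together. The difference was -0.14 (SE 0.06, 95% interval -0.28 to -0.0037) and did not pass in limma (unadjusted p = 0.0455, adjusted p = 0.744). On the arrays with low hybridization controls it was -0.15 (unadjusted p = 0.106 in limma), and on those with high ones -0.12. With 1 array left out it ran from -0.18 to -0.10, with unadjusted p from 0.0227 to 0.153 in limma. Only without Dahl S array 1 was that p under 0.05. The other probe set of Esrrg, 1381445_at, read 8.81, 8.64 and 8.39 against 8.39, 8.47 and 8.67, with full overlap and a difference of -0.10. That value was close to 0 when Dahl S array 1 was left out, and -0.21 when array 3 was.

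Esrra, the ERR alpha receptor, read 9.66, 9.63 and 9.59 in Dahl S and 9.69, 9.48 and 9.62 in the congenic heart. The congenic arrays held both the highest and the lowest value, and the difference was -0.03 (95% interval -0.19 to 0.13). Of the ERR family, Esrrb gave -0.03 as well (adjusted p = 0.956 in limma). Ppara, the receptor that fatty acids activate, was measured on a dim probe set at the 32.6th percentile of brightness, with 5.54, 5.50 and 5.41 in Dahl S and 5.47, 5.34 and 5.10 in the congenic heart. The strains overlapped at their edges, and the difference of -0.18 (95% interval -0.41 to 0.05) was -0.08 without congenic array 3, the lowest array.

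Nrf1, the nuclear respiratory factor, showed no direction across its 3 probe sets. Its brightest, 1382071_at, read 6.89, 7.20 and 7.11 in Dahl S and 7.12, 7.09 and 7.03 in the congenic heart. The congenic values all lay inside the Dahl S range, and the difference was 0.01 (95% interval -0.19 to 0.21). The other 2 probe sets, both dim, overlapped between strains and differed by -0.07 and -0.09.

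Among the genes of mitochondrial transcription, Tefm, the elongation factor, gave the tightest separation of all members. It read 8.76, 8.75 and 8.76 on the Dahl S arrays and 8.62, 8.63 and 8.62 on the congenic arrays. The spread within a strain was far smaller than the gap, with an SD of 0.0046 for Dahl S and 0.010 for the congenic strain (n = 3 each). The difference was -0.14 (SE 0.05, 95% interval -0.25 to -0.02), a 1.10-fold lower level. It did not pass in limma, which widens such small spreads toward those of other probe sets (unadjusted p = 0.0275, adjusted p = 0.736). With 1 array left out it stayed between -0.14 and -0.13, and the arrays with low hybridization controls alone gave -0.14 and those with high ones -0.12.

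Tfb2m, the factor that melts the mitochondrial promoter, read 9.47, 9.57 and 9.58 in Dahl S and 9.46, 9.45 and 9.34 in the congenic heart. The strains did not overlap, but Dahl S array 1 and congenic array 1 lay side by side. The difference was -0.12 (SE 0.06, 95% interval -0.26 to 0.03, adjusted p = 0.791 in limma). Its paralogue Tfb1m, which methylates ribosomal RNA in mitochondria, differed by 0.0090. Tfam, the packaging factor, read 9.50, 9.58 and 9.67 against 9.51, 9.53 and 9.50. Its strains overlapped, as Dahl S array 1 lay within the congenic range, and the difference was -0.07 (95% interval -0.21 to 0.07). Polrmt, the polymerase itself, read 8.80, 8.84 and 8.72 against 8.83, 8.73 and 8.68, also with overlap and with a difference of -0.04 (95% interval -0.19 to 0.11).

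Non-overlap between strains was found for 5 of the 15 probe sets, 4 lower and 1 higher in the congenic heart. Over all probe sets, 6.90% were lower and 5.83% higher without overlap. Of the member probe sets, 11 were brighter than the median probe set, and bright genes had a larger lower share. Among genes brighter than the median probe set, 11.5% were lower and 5.13% higher without overlap. Among those above the 90th percentile, 15.9% were lower and 5.86% higher. Of the 15 differences, 12 were below 0, against 49.2% of all probe sets. Among genes brighter than the median probe set 60.8% were below 0, and among those above the 90th percentile 64.4%. The intervals bound what the arrays could have missed. For the 10 member probe sets brighter than the median other than Ppargc1b, they reached from -0.37 to 0.21, or from -22.9% to 15.6%. The smallest difference that the fit called anywhere was 0.59, and the member differences ran from -0.20 to 0.33. That smallest called value is not a detection limit, and what size of change 3 arrays per strain could call was not tested.

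**Figure D2:**
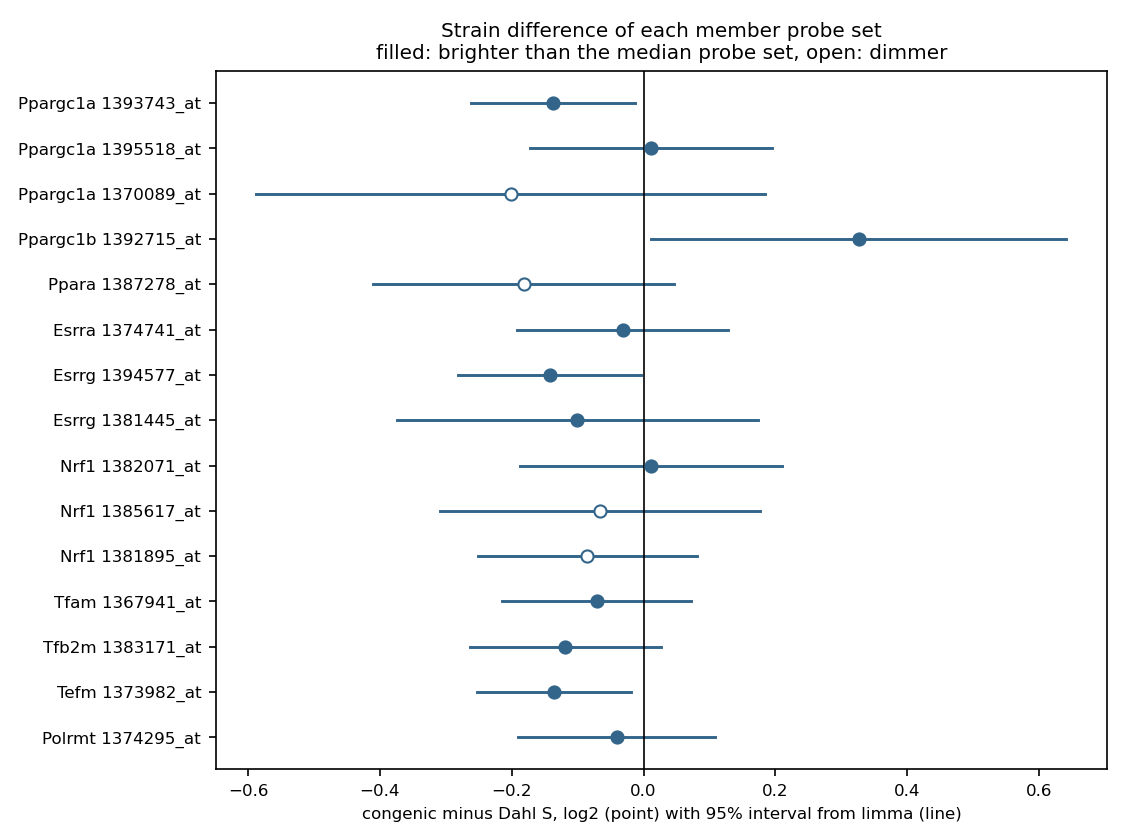
Strain difference (congenic minus Dahl S, log2) of each of the 15 probe sets with its 95% interval from limma; filled points are brighter than the median probe set and open points dimmer. The interval lies below 0 for Ppargc1a 1393743_at, Esrrg 1394577_at and Tefm and above 0 for Ppargc1b, and 0 probe sets passed after adjustment.

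The count of members lower at an unadjusted p under 0.05 changed with the scaling, with the fit and with the arrays used. After quantile normalization 0 member probe sets were lower and 1 was higher at an unadjusted p under 0.05, with differences of -0.11 for Ppargc1a 1393743_at and Tefm and -0.12 for Esrrg 1394577_at, and 12 of 15 were still below 0. With an intensity trend in the variance 4 were lower, Tfb2m being the fourth, and 1 was higher. On the arrays with low hybridization controls 0 were lower and 1 was higher. With 1 array left out, 4 were lower without Dahl S array 1, and 1 without congenic array 1 or Dahl S array 3. Without congenic array 2, congenic array 3 or Dahl S array 2, 0 were lower. In each of these fits 0 or 1 was higher. Limma called 0 members in each of the 13 alternative fits, with a lowest adjusted p of 0.458.

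The members were set beside the varying tissue of the pools. Ppargc1a 1393743_at was highest on Dahl S array 3, where Ucp1 was highest too, and lowest on congenic array 2, where Ucp1 was second highest. Over the 6 arrays Ucp1 spanned 2.61 and Cd3e 2.46, while Ppargc1a 1393743_at spanned 0.21, Tefm 0.15 and Tfam 0.17. Of the 4 measured brown fat markers, Ucp1 and Cidea were bright on every array, and Zic1 and Elovl3 were dim. The median of the brown fat markers ran from -0.03 to 0.06 in Dahl S and from -0.09 to 0.09 in the congenic arrays. With 2 dim genes among the 4, this median does not show the span of Ucp1. The mean level of the 4 markers was 7.27, 7.62 and 7.88 on Dahl S arrays 1, 2 and 3. On congenic arrays 1, 2 and 3 it was 7.37, 7.85 and 7.44. Without Dahl S array 3, the array high in lymphocyte markers and Ucp1, the difference was -0.12 for Ppargc1a 1393743_at, -0.14 for Tefm, -0.15 for Esrrg 1394577_at and 0.30 for Ppargc1b. Fibroblast markers lay on the other side, with medians of -0.12 to -0.03 in Dahl S and -0.02 to 0.17 in the congenic arrays, and 6 of 6 were higher. Macrophage markers ran from -0.18 to 0.02 and from 0.02 to 0.15, with 5 of 6 higher. Erythroid markers differed most among the lists that were higher in the congenic heart, with medians of -0.38 to 0.09 in Dahl S and 0.11 to 0.21 in the congenic arrays, 4 of 4 higher and a median difference of 0.29. The globin chaperone Ahsp (0.40) and the heme synthesis enzyme Alas2 (0.36) had an unadjusted p of 0.017 each in limma and did not pass (adjusted p = 0.736). Smooth muscle markers were higher for 5 of 5, with overlapping array medians of -0.34 to 0.17 and -0.03 to 0.22. The part of these cell types in the members' values was not tested.

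**Figure D3:**
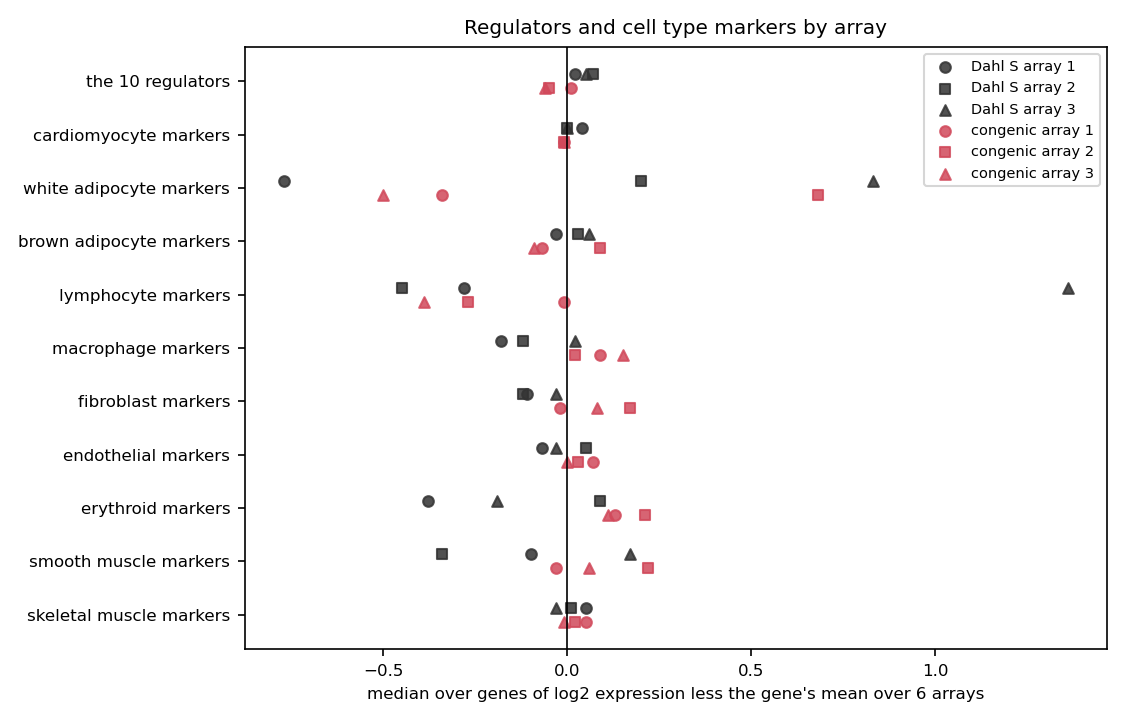
Median over genes of log2 expression less each gene's mean over the 6 arrays, for the 10 regulators and for the markers of each cell type (dark, Dahl S; red, congenic; the symbol gives the array number). The regulators stay between -0.06 and 0.07, while lymphocyte markers reach 1.36 on Dahl S array 3 and white adipocyte markers run from -0.77 to 0.83. The brown adipocyte markers include 2 dim genes, so that their median does not show the span of 2.61 of Ucp1.

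Taken per gene, with the brightest probe set standing for it, 8 of the 10 regulators were below 0, with a median of -0.095 against -0.007 over all 14217 genes. Bright genes leaned slightly to the same side in these data. Among the genes brighter than the median probe set, 60.8% were below 0 with a median of -0.019, and among those above the 90th percentile 64.4% with a median of -0.022. At an unadjusted p under 0.05, 3.55% of all genes were lower and 3.47% higher, and 8.75% and 5.89% were lower and higher without overlap. For genes brighter than the median probe set these shares were 4.19% and 2.56%, and 11.5% and 5.13%. The counts of the lists that follow stand against these shares. Limma called 5 of the 14217 genes (0.0352%), 0.0211% lower and 0.0141% higher, and 0 members of the 5 lists.

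The partners and inputs of PGC-1 showed 3 genes lower and 0 higher at an unadjusted p under 0.05 among 36 measured of 39 listed, with a median of -0.03. Sirt3, a mitochondrial deacetylase that PGC-1 alpha induces, read 9.18, 9.17 and 9.28 in Dahl S and 9.03, 8.97 and 9.00 in the congenic heart. The strains were well apart, by -0.21 (SE 0.06, adjusted p = 0.729 in limma). Rxrg, the heterodimer partner of PPARs that is found in muscle, differed by -0.18 on its bright probe set and -0.02 on its dim one. Med1, a Mediator subunit that contacts nuclear receptors, differed by -0.20 on its brightest probe set but by 0.04 and 0.24 on the others. The share of this list below 0 was 69.4% and fell to 55.6% with quantile normalization, the largest fall among the lists. In the lists that follow it was 76.9% to 94.6%, and 71.8% to 88.9% with quantile normalization. For the regulators it was 80.0% in both, and for all genes 53.3% and 50.7%.

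The mitochondrial DNA and RNA machinery, the genes that work beside Tfam, Tfb2m, Tefm and Polrmt, had 39 of 42 members measured. At an unadjusted p under 0.05, 0 were lower and 0 higher, 30 of the 39 lay below 0, and the median was -0.06. Smallest in p were Ptcd2 (-0.13), a pentatricopeptide protein of mitochondrial RNA, Supv3l1 (-0.12), an RNA helicase, and Fastkd3 (-0.13), with adjusted p from 0.751 to 0.768 in limma. For each of these 3 genes every congenic value was under every Dahl S value, but they were picked by their p. In the whole list, 10 of the 39 were lower and 0 higher without overlap. Of the partners and inputs 10 of 36, and of the PPAR alpha targets 12 of 28, were lower without overlap, with 1 higher in each list. Of the respiration genes 13 of 37, and of the mitochondrial ribosomal proteins 30 of 72, were lower without overlap, with 0 higher. Among all genes brighter than the median probe set, 11.5% were lower without overlap, and above the 90th percentile 15.9%. Mitochondrial ribosomal proteins, which translate the transcripts made by Polrmt, had 6 of 72 measured genes lower and 0 higher at an unadjusted p under 0.05, or 2 lower with quantile normalization. Their median was -0.07, and 66 lay below 0. Mrps9 differed by -0.16 on both of its probe sets and Mrpl44 by -0.14, while Mrps18c differed by -0.19, -0.13 and 0.06 from its brightest to its dimmest probe set. Transcripts coded by mitochondrial DNA itself were not analysed here, since no probe set was named for one in the annotation used.

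Of the PPAR alpha target genes, 28 of 30 were measured, 1 was lower and 1 higher at an unadjusted p under 0.05, and 25 lay below 0, with a median of -0.09. Plin5, which coats lipid droplets in oxidative tissue, read 10.00, 9.93 and 9.86 in Dahl S and 9.77, 9.73 and 9.79 in the congenic heart, a difference of -0.16 (SE 0.06, adjusted p = 0.736 in limma). Vnn1, a pantetheinase, differed by -0.19 (adjusted p = 0.748). The higher gene, the thioesterase Acot1, was measured on a probe set at the 8.73th percentile of brightness, with means of 3.94 and 4.16. Of the respiration genes that ERR and NRF1 control, 37 of 42 were measured, 1 was lower and 0 higher, and 35 lay below 0 by small amounts, with a median of -0.03. The one lower was Cox7a1, the muscle form of a cytochrome c oxidase subunit, at 9.48, 9.69 and 9.58 against 9.28, 9.25 and 9.28. Its strains were far apart, with a difference of -0.31 (SE 0.07, adjusted p = 0.717 in limma). Idh3b, a citric acid cycle subunit, and Mdh2, a malate dehydrogenase, came next with -0.10 and -0.08.

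**Figure D4:**
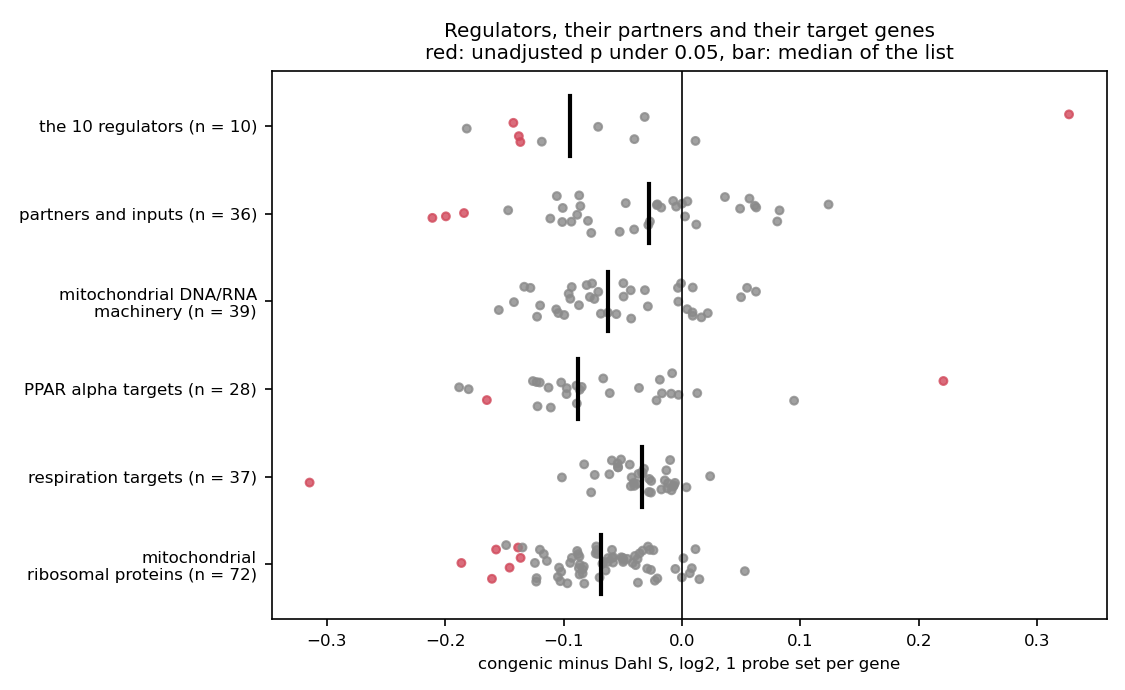
Strain difference (congenic minus Dahl S, log2) of each measured gene of the 10 regulators and of 5 lists of their partners, machinery and targets, with 1 probe set per gene; red points have an unadjusted p under 0.05 and bars are list medians. Every median lies below 0, from -0.095 for the regulators to -0.028 for partners and inputs, and Ppargc1b at 0.33 lies highest.

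On chromosome 10, 17 measured genes separate Tefm from Rffl, a gene that published studies of this strain name. Whether Tefm lies within the Lewis stretch is not known here. The 10 measured genes nearest to Tefm, 5 on each side, differed by -0.12 to 0.06, with 0 at an unadjusted p under 0.05 and 0 called by limma. Next to it, Atad5 differed by 0.06 and Adap2 by 0.02, and the strains overlapped for both. Between Tefm and Rffl, 1 of the 17 genes was higher at an unadjusted p under 0.05 (the chemokine gene Ccl2, 0.32) and 1 lower (the DNA ligase gene Lig3, -0.19), and Rffl itself differed by 0.11. Limma called 0 of these genes.

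**Figure D5:**
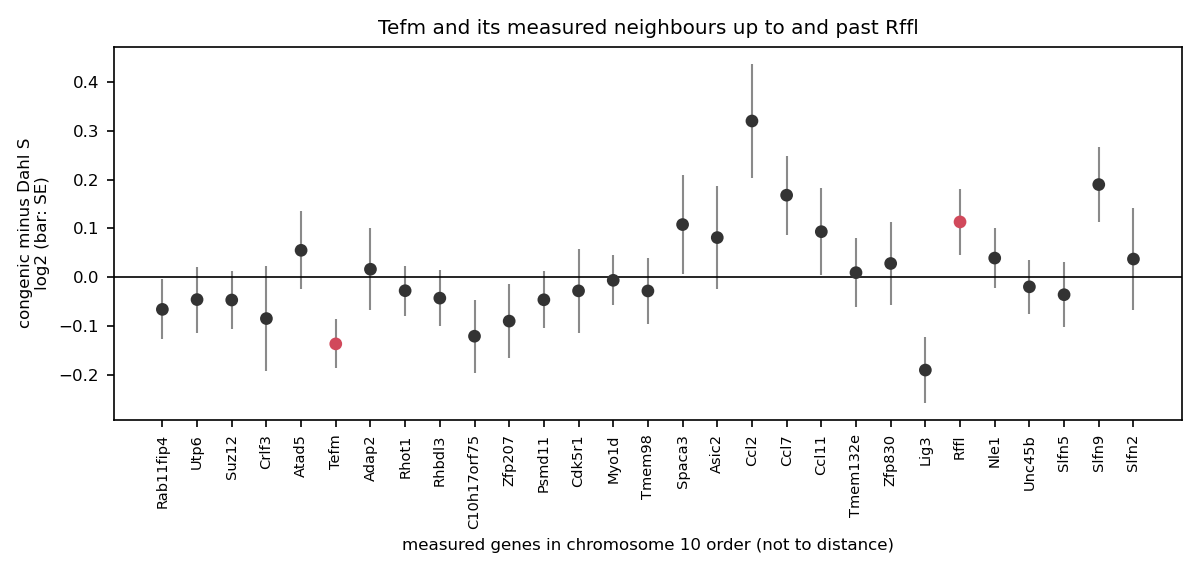
Strain difference (congenic minus Dahl S, log2, with SE) of Tefm, Rffl and the measured genes between and beside them, in their order along chromosome 10 and not to distance. Tefm lies at -0.14, its 10 nearest measured genes between -0.12 and 0.06, and Rffl at 0.11. Farther from Tefm, Lig3 lies lower than Tefm at -0.19, Ccl2 lies at 0.32, and Slfn9, past Rffl, at 0.19.

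The genes whose profile over the 6 arrays came nearest to that of Ppargc1a 1393743_at were Plgrkt, a plasminogen receptor gene, Nlk, a serine/threonine kinase gene, and Rnf128, a ubiquitin ligase gene. Likeness was the root mean square distance between log2 values less their mean, over 6 arrays and among 9461 genes brighter than the median probe set. The distances were 0.011, 0.012 and 0.015, against a median of 0.089 over these genes. All 3 were lower in the congenic heart, by 0.14 to 0.15 on the log2 scale, and did not pass (adjusted p = 0.736 in limma for each). Their direction and size follow from the way they were picked and are no separate result.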

How the data were processed

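The authors summarised the 6 arrays (Affymetrix rat expression arrays) by RMA (per the submitters' processing notes). They deposited log2 values, 1 per probe set and array, after the background correction and normalization that RMA applies. Per the labels' protocols, each array received labelled cRNA made from total RNA of 1 pool. No source used here gives the RMA version. The series' design text names Benjamini-Hochberg adjustment in R 2.8.1.

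The 57 control probe sets were set aside and the other 31042 tested in R 4.3.3 by limma 3.58.1, with lmFit and eBayes on strain alone. Probe sets carried exactly 1 gene in 20826 cases, several in 436 and none in 9780, by GEO's platform annotation matched to RefSeq GRCr8. The probe set of highest mean stood for a gene in lists, which were described by counts and medians with no test. Precision is limited by the few arrays. Plots were drawn with matplotlib 3.10.9.

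The members and lists were chosen with earlier results of these data known. Named genes were the members, the 3 genes of smallest unadjusted p in each list, the 3 most like Ppargc1a, and the neighbours of Tefm, with Pprc1, Esrrb and Tfb1m added as paralogues and markers and Rffl as reference points. Arrays with the same number did not deviate together (correlations of -0.073, -0.058 and -0.183), so numbers were not taken as pairs. Alternatives were quantile normalization, median centring, the brighter probe sets alone, a variance trend, both blocks, the low control-level arrays, each array left out, and the mean of a gene's probe sets.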

Additional observations from a re-analysis of the deposited data

How the results depend on the processing

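Limma called 0 member probe sets in all 13 alternative fits. Of 191 member values under these alternatives, 9 changed sign, in 4 probe sets whose own difference was at most 0.07 in size. The 191 include fits that leave the difference of a probe set as it was, so that its sign was fixed there. These are the variance trend, both blocks and the brighter probe sets alone. The count of called probe sets on the whole array, 11, was 5 with the hybridization-control level blocked, 5 with the replicate block, 2 within the arrays of low control level and from 5 to 6 with 1 array left out. It was 9 with quantile normalization and among the brighter probe sets alone, 11 with median centring and 16 with the variance trend, and 0 of them were members. The replicate numbers do not pair the arrays: 0 of 6 arrays matched best the array of their own number, and with the replicate block 1 member probe set was lower and 1 higher at an unadjusted p under 0.05. The median of the 10 regulators ran from -0.123, without Dahl S array 1, to -0.071, without congenic array 3 and also among the brighter probe sets alone. Of 84 list medians under alternatives, 0 were above 0 and 7 moved by more than 1 SD between arrays of a strain. The variance trend and both blocks cannot move these medians either. No depth applies to arrays, and the dimmest probe set of Ppargc1a had the widest interval among the members, followed by the bright one of Ppargc1b.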
